A study of Xenopus laevis with 12 samples.

Results

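The comparison set all 6 libraries of thioridazine-treated tadpole heads against all 6 libraries of control heads of Xenopus laevis (the African clawed frog), over both stages sampled. It used all 12 libraries of the series, and each treated library was set against the control library of the same stage and replicate number, which made 6 pairs. Of 37018 genes in the files, 27050 had enough counts to be tested. A gene was called when its adjusted p was under 0.05 (edgeR's quasi-likelihood test with the pair as a block, Benjamini-Hochberg adjustment over all 27050 genes). In all, 493 genes were called, 1.82% of those tested, with 274 higher in treated heads (1.01%) and 219 lower (0.81%). Regardless of any call, 2125 genes lay on one side in all 6 pairs (7.86%), of which 1159 were higher (4.28%) and 966 lower (3.57%). Both conditions were met by 425 genes (1.57%), 246 higher (0.909%) and 179 lower (0.662%), and these 425 are the consistent genes described here. The sign condition used the same counts as the test, so it describes the called genes and is not a second test. Whether pairs with the same number at both stages are independent of each other was not tested.

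Controls were wild-type tadpoles, described by the labels as wild type and by no other allele. Treated embryos sat in medium with 90 µM of the drug, at 18 °C, from stage 14 to stage 26 of the Nieuwkoop and Faber (NF) series, when the neural tube and neural crest form, and both groups were then reared at 14 °C. Heads were taken at NF stage 45 and NF stage 47, feeding tadpoles, 3 libraries for every combination of stage and treatment. Treated heads came from animals with malformed faces, so the drug and the selection of malformed animals cannot be told apart. The labels speak of biological replicates without naming a clutch or the number of animals in a library. With the pair as a block, the p-values cover the spread of the treated-minus-control difference among the pairs. Spread shared by both libraries of a pair is taken up by the block. The spread among pairs may be in part technical.

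Thioridazine is a phenothiazine antipsychotic that blocks dopamine receptors. It is also a cationic amphiphilic compound, a kind of drug that gathers in lysosomes, the acidic compartments where cells break down proteins, lipids and sugar chains. Several tissues of the face come from the neural crest, among them cartilage, bone, nerves and pigment cells, while the pigmented layer of the eye comes from the neural tube. Dopamine from the hypothalamus holds back prolactin release from the pituitary, and that of alpha-MSH, a peptide cut from the pomc product that darkens the skin of frogs.

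The 12 libraries held between 11998636 and 16933777 counts, and no pair of libraries was identical. Markers of a head were present in every library (rhodopsin of rods, crystallins of lens, neurofilament, type II collagen, myosin light chain of muscle). One library stood apart for genes of pancreas and gut. The control library of stage 47, replicate 3, held 1158 counts of the pancreatic enzyme cpa1.L, where every other library held between 0 and 3. It also held 64 counts of insulin (ins.S) and 106 of the gut fatty acid binding protein fabp2.L, against at most 2 and at most 9 elsewhere. Albumin (alb.S) was less confined, with 269 counts there, 85 in control stage 47 replicate 2 and 55 in treated stage 47 replicate 3. Every other library held between 0 and 31. The heart gene myl7.S was present in every library (37.0 to 74.2 CPM in controls, 46.5 to 65.2 CPM in treated heads). Without the pair of stage 47 replicate 3, 190 genes were called, 173 of them among the 425 consistent genes. The matching count without stage 45 replicate 3 was 193, without stage 45 replicate 1 it was 231, and without each of the other 3 pairs it lay between 401 and 625. Of the 425 genes, 137 (92 higher and 45 lower) stayed called whichever single pair was left out.

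Most shifts were small. Levels are given as CPM, counts scaled to a common library size, and changes as log2 fold changes ± standard error. The median change of the consistent genes was 1.35-fold upward for those raised and 1.29-fold downward for those lowered. Over all genes tested the median log2 change was 0.01, and a distance from it follows from the choice of genes. At least 2-fold changes were found for 28 raised and 6 lowered genes. In 58 of the 425 genes the 6 treated and 6 control libraries did not overlap at all (45 higher and 13 lower), where 103 of all 27050 genes (0.381%) had no overlap. The 425 were chosen on the same counts, so a larger share without overlap among them follows from that choice. Without the block, in a fit with stage and treatment alone, 34 genes were called (0.126%), 32 higher and 2 lower, and all 34 were among the 425. Of the genes named below, those that pass in that fit are dct.L, tyrp1.L, pmel.L, pmel.S, mlana.L, slc24a5.L, slc45a2.L, ednrb2.S, xdh.S, prl.2.S, cish.S, slc2a7.L, grk7.L, tmprss2.2.L and both bcl6 copies.

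**Figure D1:**
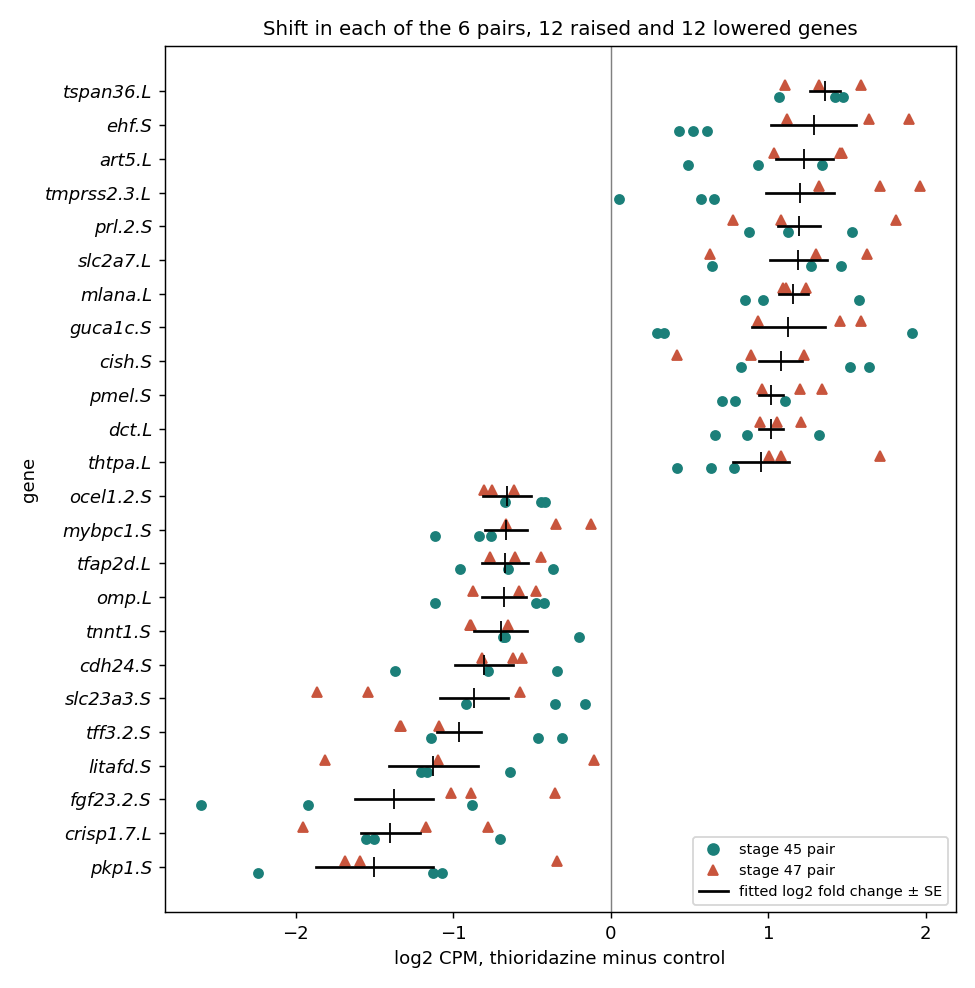
Shift of the 12 most raised and 12 most lowered named genes in each of the 6 pairs (x axis, log2 CPM of the treated library minus that of its control; circles stage 45 and triangles stage 47 as keyed, lines the fitted log2 fold change ± SE). All 6 points of a gene lie on one side of 0, as the choice of genes requires, from tspan36.L (fitted 1.36) at the raised end to pkp1.S (fitted 2.83-fold lower) at the lowered end.

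Of all lists examined, the melanin list had the largest share of its genes called higher. Genes of enzymes, carriers and structural proteins of the melanosome, the organelle that makes melanin, were called higher (10) and never lower. The gene tspan36.L (identifier 398992), a tetraspanin expressed in pigment cells of zebrafish, is not in the melanin list and not among those 10. It had the largest fitted rise of the 12 most raised named genes. It ran from 3.82 to 7.62 CPM in controls (median 6.36) and from 9.79 to 23.1 CPM in treated heads (median 13.7). The ranges did not touch. Its log2 fold change was 1.36 ± 0.10 (2.56-fold, adjusted p = 5.23e-08), and the shifts in single pairs ran from 1.07 to 1.58. Without the block its adjusted p was 0.0611.

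Melanin is made from tyrosine by a short chain of enzymes. For dct.L (100381161), dopachrome tautomerase, controls ran from 17.2 to 31.1 CPM (median 21.0) and treated libraries from 33.3 to 53.4 CPM (median 47.9). The groups did not overlap, with a log2 fold change of 1.02 ± 0.08 (2.02-fold, adjusted p = 1.37e-07). Its relative tyrp1.L (380184) ran from 126 to 181 CPM in controls (median 145) and from 228 to 350 CPM in treated heads (median 262), again without overlap. The rise was 0.90 ± 0.07 (adjusted p = 1.19e-07). No other melanin enzyme of the list had a tested copy.

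The fibres on which melanin is laid down are built from the pmel product. Both copies rose, pmel.S from a control median of 80.2 CPM (48.9 to 104) to 154 CPM (104 to 185) and pmel.L from 114 CPM (84.5 to 145) to 207 CPM (156 to 238). Neither copy overlapped between the groups. The log2 fold changes were 1.02 ± 0.07 and 0.88 ± 0.07 (adjusted p = 1.37e-07 for each). The gene mlana.L, whose product aids the maturation of pmel, ran from 6.07 to 11.7 CPM in controls (median 8.65) and from 13.3 to 26.7 CPM in treated heads (median 19.1). It rose by 1.16 ± 0.09 without overlap (2.23-fold, adjusted p = 1.80e-07).

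Carriers and traffic proteins of the melanosome moved with them by smaller amounts. The membrane carriers slc45a2.L (0.74 ± 0.07) and slc24a5.L (0.79 ± 0.10), both required for normal pigmentation in vertebrates, rose. So did rab38.S (0.82 ± 0.12) and rab32.L (0.50 ± 0.11), small GTPases that deliver enzymes to the melanosome, and gpr143.S (0.69 ± 0.11), the ocular albinism receptor. In the whole list of melanin and melanosome genes, 10 of 19 tested were called higher (52.6%, against 1.01% of all genes) and 0 lower, with a median log2 change of 0.50. Their summed level was 468 to 653 CPM in controls and 737 to 1046 CPM in treated libraries. The 9 not called include the motor myo5a.L (-0.22 ± 0.12) and rab27a.L (0.10 ± 0.06), which move finished melanosomes through the cell. Of the 10, 7 passed without the block as well. Leaving out any single pair kept all but rab32.L, whose adjusted p went up to 0.108 without stage 45 replicate 3.

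Receptors and other pigment genes gave a narrower picture. The endothelin receptor ednrb2.S (379394), which in birds and frogs belongs to migrating pigment precursors, ran from 26.9 to 32.1 CPM in controls (median 30.0). Treated libraries ran from 44.1 to 70.5 CPM (median 56.1), so the lowest treated library lay well above the highest control. The log2 fold change was 0.92 ± 0.06 (1.89-fold, adjusted p = 5.23e-08), and the call held without any pair and without the block. Its other copy, ednrb2.L, ran from 5.16 to 12.6 CPM in controls (median 11.97) and from 13.5 to 18.1 CPM in treated heads (median 16.6). It rose by 0.63 ± 0.11 (adjusted p = 0.00888), a call lost without stage 45 replicate 3 (adjusted p = 0.0615).

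These were the only 2 of 28 tested genes of the pigment lineage list that were called (median log2 change 0.10). The lineage regulator sox10 stayed near 0 in both copies (sox10.L 0.10 ± 0.07, sox10.S -0.01 ± 0.07), and the receptor kit.S was at 0.01 ± 0.07. The factor mitf.S, the master regulator of pigment cells, was higher in all 6 pairs at 0.38 ± 0.23 but at about 1 CPM did not pass (adjusted p = 0.487). In the list of yellow and reflecting pigments, xdh.S (xanthine dehydrogenase) rose by 0.89 ± 0.12 (adjusted p = 0.000998). The purine enzyme pnp.S rose by 0.32 ± 0.07 (adjusted p = 0.0161, and 0.105 without stage 47 replicate 3), and the other 11 of 13 were not called. In a whole head, more pigment cells and more RNA per pigment cell cannot be told apart, and neither can skin and eye as the source. Beside the melanin genes, 4 of 27 genes of the visual cycle of the eye's pigment layer were called higher (14.8%, against 1.01% of all genes). Their summed levels overlapped (1015 to 1346 CPM in controls, 1172 to 1451 CPM in treated heads), and the part of eye tissue in the melanin result was not tested.

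**Figure D2:**
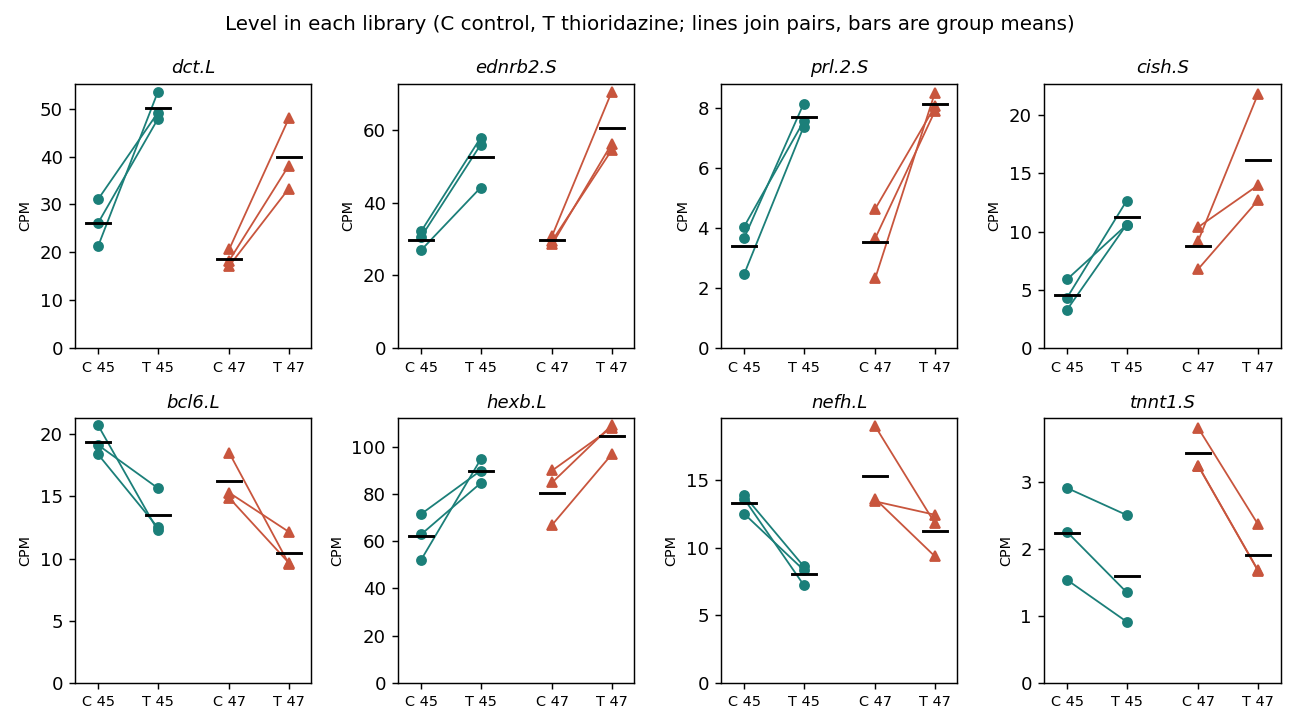
Levels of some consistent genes in each of the 12 libraries (y axis, CPM from 0, with C control and T thioridazine at stages 45 and 47). Thin lines join the pairs and bars are group means. The genes were picked for display and are not a representative sample of the consistent genes. In ednrb2.S the treated libraries start at 44.1 CPM, above the highest control at 32.1 CPM, whereas in hexb.L the groups overlap. One direction within all pairs follows from the choice of genes.

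The second group of raised genes belonged to the lysosome. Of 83 tested lysosome genes 23 were called higher (27.7%, against 1.01% of all genes) and 0 lower. In all 6 pairs 28 were higher and 3 lower (37.3% on one side, against 7.86% of all genes). Called and higher in all 6 pairs were 19. The list's median log2 change was 0.18, between 0.04 and 0.31 in single pairs. The summed level was 4194 to 5600 CPM in controls and 5154 to 6243 CPM in treated heads, and these ranges overlapped. Changes of the 23 called genes were small, from 0.24 to 0.58 on the log2 scale. Over the whole list they ran from -0.16 to 0.58, with 11 genes under 0.

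The enzymes that take sugars off glycolipids and glycoproteins were well represented. For hexb.L, the beta subunit of hexosaminidase, controls ran from 52.1 to 89.9 CPM (median 69.2) and treated libraries from 84.6 to 109 CPM (median 95.7), with a rise of 0.46 ± 0.07 (adjusted p = 0.00111). The groups overlapped at their edges. The beta-glucuronidase gusb.L had a control median of 9.38 CPM (5.33 to 16.1) and a treated median of 14.8 CPM (6.27 to 21.1), with wide overlap. Its shifts within pairs, all upward as the choice of consistent genes requires, ran from 0.23 to 0.82. The fitted rise was 0.58 ± 0.09 (adjusted p = 0.00171). The fucosidase rose in both copies (fuca1.S 0.37 ± 0.06, fuca1.L 0.35 ± 0.06). The galactosidase gla.S (0.48 ± 0.08) was higher in 5 of 6 pairs, and naga.S, neu1.L and galc.L were called higher in all 6.

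Proteases and their helpers formed the rest. The cysteine protease legumain (lgmn.L) ran from 87.3 to 154 CPM in controls (median 124) and from 117 to 197 CPM in treated heads (median 150). It rose by 0.37 ± 0.06 (adjusted p = 0.00136), and the groups overlapped. Its shifts within pairs ran from 0.22 to 0.48, on one side by the choice of genes. Cathepsins C (both copies), Z, B (both copies), A and K were called, as were the peptidase tpp1.L and the saposin precursor psap in both copies (psap.L 0.31 ± 0.06, psap.S 0.27 ± 0.06), which assists glycolipid breakdown. The ceramidase asah1.L, the phosphatase acp5.L, the membrane protein lamp1.S and the sialic acid exporter slc17a5.S complete the 23. Of the 23, ctsb.S, ctsk.L, tpp1.L and gla.S are not among the consistent genes. The 9 tested subunits and helper of the proton pump that acidifies lysosomes did not move with the enzymes. None was called, 1 was above 0, and their median was -0.07 against 0.21 for the other 74 genes of the list.

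No lysosome gene was called without the block. Leaving out 1 pair left 10 called without stage 47 replicate 3, 10 without stage 45 replicate 1, 11 without stage 45 replicate 3, and between 17 and 25 without each of the others. Macrophages and osteoclasts are rich in lysosomes, so the myeloid list is given beside them. Of 64 tested myeloid genes 2 were called higher (3.12%, against 1.01% of all genes) and 59 had a fitted change above 0 (median 0.23), with a list median of -0.08 in stage 45 replicate 2 and above 0 in the other 5 pairs. These were tyrobp.L, an adaptor of myeloid receptors (0.72 ± 0.13, adjusted p = 0.00382), and ncf1.L, a subunit of the phagocyte oxidase (0.60 ± 0.14, adjusted p = 0.0312). For tyrobp.L, controls ran from 2.66 to 4.29 CPM (median 3.31) and treated libraries from 3.69 to 7.21 CPM (median 5.84). The summed myeloid level was 376 to 573 CPM in controls and 423 to 722 CPM in treated heads. The ncf1.L call was lost without 4 of the 6 pairs, at most with an adjusted p of 0.138 (without stage 45 replicate 3). How far myeloid cells carry the lysosome result was not tested.

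The prolactin and pituitary list had members called both ways. The prolactin gene prl.2.S (108697263) is described beside that list but is not counted in it. It ran from 2.33 to 4.64 CPM in controls (median 3.66) and from 7.38 to 8.51 CPM in treated heads (median 7.97). The groups lay far apart, and the rise was 1.19 ± 0.14 (2.29-fold, adjusted p = 3.80e-05), with an adjusted p of 0.00473 without the block. The gene cish.S, which encodes a feedback inhibitor of cytokine receptors such as the prolactin receptor, rose from a control median of 6.35 CPM (3.31 to 10.4) to 12.7 CPM (10.6 to 21.8). Its log2 fold change was 1.08 ± 0.14 without overlap (adjusted p = 0.00126). The copy cish.L was called at 0.56 ± 0.11 (adjusted p = 0.0182) but lay just under 0 in 1 pair and is not among the 425.

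The repressor bcl6, known in mammals as a gene that the same pathway turns down through STAT5, fell in both copies. For bcl6.L, controls ran from 14.9 to 20.7 CPM (median 18.4) and treated libraries from 9.58 to 15.7 CPM (median 12.2). It fell by 0.58 ± 0.09 on the log2 scale (adjusted p = 0.00143). For bcl6.S, controls ran from 13.1 to 18.1 CPM (median 15.1) and treated libraries from 8.90 to 12.5 CPM (median 10.4), without overlap. It fell by 0.55 ± 0.09 (adjusted p = 0.00208), and both copies were the only lowered genes called without the block. The precursor of ACTH and alpha-MSH rose in both copies (pomc.S 0.58 ± 0.09, adjusted p = 0.0084; pomc.L 0.46 ± 0.09, adjusted p = 0.0161). Those 2 calls were lost without some pairs, with adjusted p of at most 0.0597 (pomc.S without stage 47 replicate 3) and 0.0842 (pomc.L without stage 45 replicate 3). The other 35 of 41 genes of the list were not called. The dopamine receptor drd2, the main target of the drug class, was close to 0 in both copies (drd2.L 0.02 ± 0.15, drd2.S -0.17 ± 0.18, both at about 3 CPM). None of 41 receptors and enzymes tied to phenothiazine binding and dopamine was called (41 genes, median -0.07, range -0.70 to 0.66).

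A few genes of the eye and of vitamin A handling were called higher. For rdh10.L, a retinol dehydrogenase of retinoic acid synthesis, controls ran from 167 to 184 CPM (median 173) and treated libraries from 198 to 252 CPM (median 231), without overlap. The rise was 0.37 ± 0.06 (adjusted p = 0.00271), and rdh10.S rose by 0.28 ± 0.06 (adjusted p = 0.0188). The retinoid isomerase of the pigment layer, rpe65.L, rose as well (0.46 ± 0.10, adjusted p = 0.0426). Of the 39 retinoic acid genes tested, 5 were called higher (12.8%, against 1.01% of all genes), 0 lower and 34 not at all. Beside both rdh10 copies these included aldh1a1.S, a synthesising enzyme (0.35 ± 0.08, 5 of 6 pairs), and cyp26a1.S, a degrading one (0.52 ± 0.13, adjusted p = 0.0480). The list's median was 0.04. Without stage 47 replicate 3, or without stage 45 replicate 1, only 2 of the 5 were called, and the adjusted p of cyp26a1.S was 0.178 in the first case.

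Among photoreceptor genes, 2 of 64 were called, both higher and both tied to cones (3.12%, against 1.01% of all genes). The cone opsin kinase grk7.L ran from 16.9 to 37.6 CPM in controls (median 26.1) and from 41.0 to 48.9 CPM in treated heads (median 43.6). Its rise of 0.79 ± 0.14 passed with the block (adjusted p = 0.0450) and without it (0.0152), but not without stage 47 replicate 3 (0.148). The cyclase activator guca1c.S had a control median of 1.08 CPM (0.416 to 1.69) and a treated median of 2.19 CPM (1.35 to 3.44). It rose by 1.13 ± 0.23 (adjusted p = 0.0144, and 0.0904 without stage 47 replicate 3). The retinal factor neurod4 rose in both copies (neurod4.S 0.48 ± 0.11, neurod4.L 0.38 ± 0.09, adjusted p = 0.0210 and 0.0236). Both calls were lost without stage 47 replicate 3, with adjusted p of 0.0918 and 0.0871.

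Epithelial genes were called in both directions. The ETS factor ehf.S, expressed in epithelia, rose by 1.29 ± 0.27 (adjusted p = 0.0159) at very low levels, with a control median of 0.541 CPM (0.154 to 1.12) and a treated median of 1.41 CPM (0.281 to 2.60). The membrane serine protease tmprss2.2.L ran from 17.3 to 29.8 CPM in controls (median 24.7) and from 26.6 to 47.4 CPM in treated heads (median 36.3). It rose by 0.59 ± 0.08 (adjusted p = 0.000243), also without the block. Its relative tmprss2.3.L rose by 1.20 ± 0.22 (adjusted p = 0.0163), from a control median of 2.05 CPM (1.69 to 3.96) to 5.62 CPM (2.16 to 13.3). Of the desmosome genes, pkp3.S and pkp1.S were called in opposite directions, while their other copies were not called (pkp3.L 0.21 ± 0.06, pkp1.L 0.11 ± 0.18). The gene pkp3.S rose by 0.29 ± 0.06 (adjusted p = 0.0218), while pkp1.S, at a control median of 1.22 CPM (0.154 to 3.01) and a treated median of 0.270 CPM (0 to 1.61), fell (2.83-fold lower, standard error 0.37 on the log2 scale, adjusted p = 0.0436).

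A secreted and a structural epithelial product fell. The trefoil peptide tff3.2.S, made by mucous cells, ran from 9.94 to 31.8 CPM in controls (median 15.7) and from 6.76 to 12.5 CPM in treated heads (median 7.38). It fell by 0.96 ± 0.14 on the log2 scale (adjusted p = 0.00503) and stayed called without each pair. The keratin krt15.1.S fell by 0.39 ± 0.07 (adjusted p = 0.00278) and was the only one of 42 keratins called. In the list of epidermal junctions 3 of 55 were called higher (5.45%, against 1.01% of all genes). In the same list 1 was called lower (1.82%, against 0.81%), and the median was 0.11. Without stage 47 replicate 3 the adjusted p of ehf.S was 0.0966 and that of tmprss2.3.L 0.105, and pkp1.S stayed called in only 1 of the 6 fits that leave out a pair, with an adjusted p of up to 0.149 (without stage 47 replicate 2).

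The neuronal list had the largest share of genes called lower. Of 86 tested genes of neurons and synapses, 11 were called lower (12.8%, against 0.81% of all genes) and 0 higher. Of the 11, 9 were consistent genes. A fitted change under 0 was found for 76 of the 86. The median was -0.18, and in single pairs it ran from -0.31 to just under 0. Summed levels were 4961 to 5492 CPM in controls and 4060 to 5193 CPM in treated heads, with overlap.

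The heavy neurofilament nefh.L, a protein of large axons, ran from 12.5 to 19.0 CPM in controls (median 13.6) and from 7.25 to 12.5 CPM in treated heads (median 9.01). It fell by 0.58 ± 0.10 on the log2 scale (adjusted p = 0.00224). Its copy nefh.S, the light neurofilament nefl.S and internexin ina.L were called lower by 0.45, 0.29 and 0.27. The receptor subunit grin1.L, of NMDA-type glutamate receptors, fell by 0.39 ± 0.07 (adjusted p = 0.00491), from a control median of 35.3 CPM (22.4 to 37.7) to 23.6 CPM (20.7 to 28.1). The synaptic vesicle genes syn1.L (-0.29 ± 0.06) and syn2.S (-0.30 ± 0.07), the axonal tau gene mapt in both copies and the neuropeptide cck.L were called lower as well. The copy mapt.S is not among the consistent genes. Of the 11 called lower, nefh.L and grin1.L were called without any single pair, and none was called without the block. The count of the list went down to 2 without stage 45 replicate 3 and to 3 without stage 45 replicate 1 or stage 47 replicate 3, and reached 13 without stage 45 replicate 2. DESeq2 called 5 of the list lower.

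Other genes of nervous tissue fell beside them. The olfactory marker omp.L, made by mature smell neurons, ran from 4.54 to 5.58 CPM in controls (median 4.81) and from 2.21 to 4.11 CPM in treated heads (median 3.13), without overlap. It fell by 0.68 ± 0.14 on the log2 scale (adjusted p = 0.0129, and 0.0891 without stage 45 replicate 3). Of 25 myelin and glia genes 1 was called lower and 1 higher, the glutamine synthetase glul.S (0.26 ± 0.06). The AP-2 factor tfap2d.L, expressed in midbrain and retina of mice, fell by 0.67 ± 0.15 (adjusted p = 0.0209, and 0.131 without stage 45 replicate 3). Of 66 genes of neural and retinal progenitors none was called lower, 2 were called higher (both neurod4 copies) and 57 had a fitted change above 0, with a median of 0.12.

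Of 84 contractile genes of skeletal muscle tested, 7 were called lower (8.33%, against 0.81% of all genes), 0 higher and 77 not at all. Of the 7, 4 were consistent genes. A fitted change under 0 was found for 76 of the 84, with a median of -0.21. The slow myosin-binding protein mybpc1.S ran from 4.58 to 10.2 CPM in controls (median 6.71) and from 2.65 to 5.17 CPM in treated heads (median 4.39). It fell by 0.67 ± 0.13 on the log2 scale (adjusted p = 0.0111, and 0.0817 without stage 45 replicate 1). The slow troponin tnnt1.S fell by 0.70 ± 0.17 (adjusted p = 0.0375) at a control median of 3.08 CPM (1.54 to 3.81) against 1.68 CPM (0.914 to 2.51). It stayed called in only 1 of the 6 fits that leave out a pair (adjusted p up to 0.129, without stage 47 replicate 3). The calcium pump of the muscle store was called in both copies, atp2a1.L at -0.32 ± 0.07 and atp2a1.S at -0.32 ± 0.07, the second lower in 5 of 6 pairs. The median of the list was under 0 in 5 pairs (-0.11 to -0.41) and 0.12 in stage 47 replicate 2. Without that pair 29 of the 84 were called lower, while 1 or 2 were without stage 45 replicates 1 or 3 or stage 47 replicates 1 or 3. DESeq2 called 12 of the list lower. Muscle phosphofructokinase pfkm.L (-0.37 ± 0.08, adjusted p = 0.0200) and pyruvate kinase pkm.S (-0.24 ± 0.06, adjusted p = 0.0480) were the only 2 of 63 glycolysis genes called. With 1 pair left out, pfkm.L stayed called in 2 of 6 fits (adjusted p up to 0.0750) and pkm.S in 1 (up to 0.155). Of 32 regulators of the muscle lineage none was called (median -0.03). In the heart muscle list 2 of 33 were called lower (6.06%, against 0.81% of all genes), neither a consistent gene, with a median of -0.10.

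**Figure D3:**
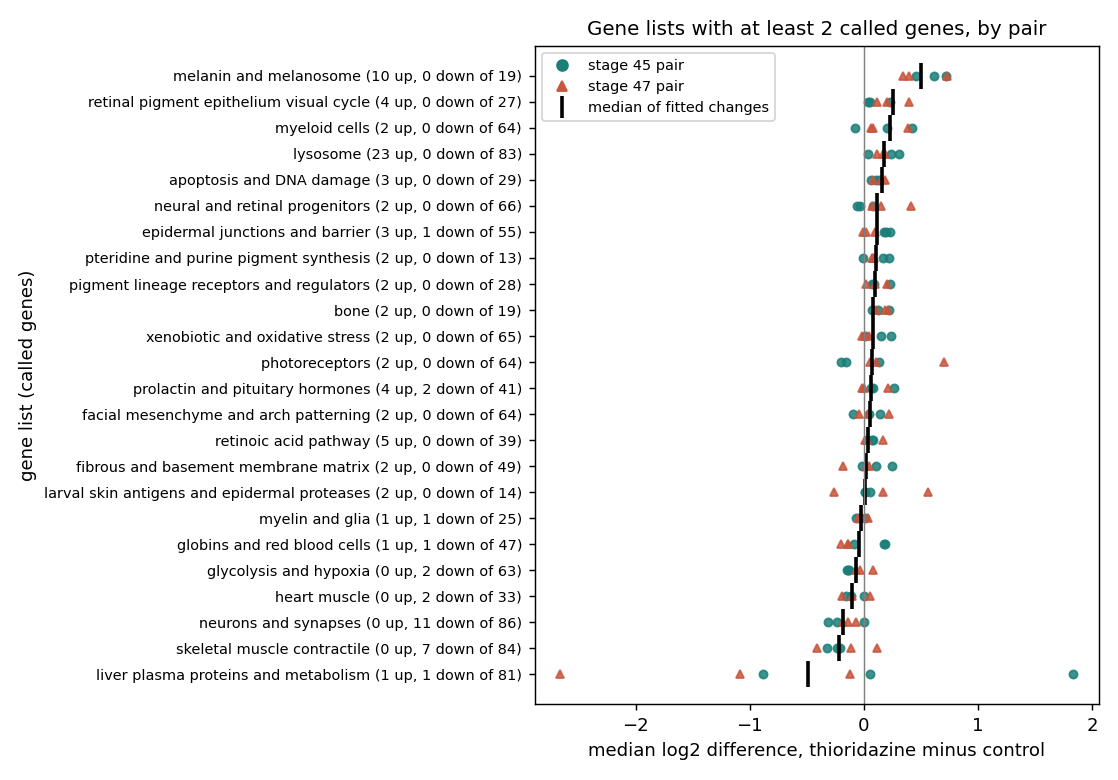
Gene lists with at least 2 called genes (y axis) and the median log2 difference of their tested members in each of the 6 pairs (x axis, treated minus control; points are pairs, bars the median of the fitted changes). The melanin list lies between 0.35 and 0.73 in all 6 pairs and the lysosome list between 0.04 and 0.31, while the muscle list crosses 0 in stage 47 replicate 2.

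The cartilage list held 0 called genes and the list of facial mesenchyme 2 (3.12% called higher, against 1.01% of all genes). None of 34 cartilage genes was called (median -0.04, range -0.79 to 0.23). The cartilage collagen col2a1.L ran from 438 to 948 CPM in controls (median 720) and from 518 to 896 CPM in treated heads (median 713), a log2 fold change of -0.02 ± 0.07. The cartilage regulator sox9 gave 0.16 ± 0.08 (sox9.L) and 0.04 ± 0.07 (sox9.S). Of 64 genes of facial mesenchyme and arch patterning 2 were called, both higher and both homeobox factors of the face, alx1.L (0.43 ± 0.09, adjusted p = 0.0163) and msx2.S (0.25 ± 0.06, adjusted p = 0.0426). Their adjusted p went up to 0.0989 (without stage 45 replicate 3) and 0.163 (without stage 47 replicate 3).

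Of the proteases that cut matrix, the collagenase mmp13.S was the only one of 26 called in the list of metalloproteinases and inhibitors (0.53 ± 0.11, adjusted p = 0.0124, and 0.0689 without stage 47 replicate 3). It had a control median of 5.25 CPM (2.08 to 11.3) and a treated median of 8.11 CPM (3.75 to 14.0), with wide overlap between the groups. The gelatinase copies mmp9.1.S (0.27) and mmp9.2.L (0.40) were not called (adjusted p = 0.543 and 0.455). The collagen-binding proteoglycans dcn.L (0.31 ± 0.06) and lum.L (0.30 ± 0.06) rose (adjusted p = 0.0111 and 0.0123). They were the 2 called of 49 genes of the fibrous matrix (4.08% called higher, against 1.01% of all genes). Both calls were lost without stage 47 replicate 3 (0.0778 and 0.0842). In the bone list, 2 of 19 genes were called, both higher (10.5%, against 1.01% of all genes), and 18 had a fitted change above 0. The called genes were ctsk.L and acp5.L, the osteoclast enzymes already counted with the lysosome.

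Of 29 genes of apoptosis and the response to DNA damage, 3 were called higher (10.3%, against 1.01% of all genes) and 0 lower. The list's median was 0.16. The ribonucleotide reductase subunit rrm2b.S, which supplies nucleotides for DNA repair, rose by 0.46 ± 0.08 (adjusted p = 0.00302), from a control median of 150 CPM (112 to 190) to 224 CPM (138 to 249), and the call held without each pair. The survival factor mcl1.S rose by 0.25 ± 0.06 (adjusted p = 0.0343, and 0.131 without stage 45 replicate 1).

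The thyroid hormone list had 1 called gene of 32. It was the hormone-inactivating deiodinase dio3.L, which ran from 13.3 to 20.9 CPM in controls (median 16.0) and from 17.0 to 27.5 CPM in treated heads (median 23.0), with a rise of 0.47 ± 0.08 (adjusted p = 0.00247) that held without each pair. The receptor thrb.S gave 0.32 ± 0.19 and did not pass (adjusted p = 0.503).

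Several of the most changed genes belonged to no list. Among the raised were art5.L, an ADP-ribosyltransferase (1.23 ± 0.18, adjusted p = 0.000833), slc2a7.L, a sugar transporter (1.19 ± 0.18, adjusted p = 0.00121), and thtpa.L, thiamine triphosphatase (0.95 ± 0.18, adjusted p = 0.00537). All 3 had treated libraries entirely above the controls, at medians of 2.98 against 1.37 CPM, 3.53 against 1.45 CPM and 3.65 against 1.82 CPM, and all 3 held without each pair. Among the lowered, crisp1.7.L, a cysteine-rich secretory protein, ran from 1.84 to 8.86 CPM in controls (median 2.90) and from 0.914 to 2.18 CPM in treated heads (median 1.34). It fell by 1.40 ± 0.19 on the log2 scale (adjusted p = 0.000292) and stayed called without each pair.

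The gene fgf23.2.S, a copy of the phosphate-regulating hormone of mammals, fell by 1.38 ± 0.25 (adjusted p = 0.00572), from a control median of 3.34 CPM (0.231 to 5.73) to 0.838 CPM (0.0615 to 2.77). The spread among libraries was wide. Falls of fgf23.2.S within pairs ran from 0.35 to 2.60, and their shared direction follows from the choice of genes. Besides pkp1.S and tnnt1.S, a further 4 of the 12 most lowered lay at or under about 3 CPM in controls and lost their call without at least 1 pair. They were litafd.S (-1.13 ± 0.28), the transporter slc23a3.S (-0.87 ± 0.21), the cadherin cdh24.S (-0.81 ± 0.18) and ocel1.2.S (-0.66 ± 0.15). Their adjusted p went up to between 0.117 and 0.203 when the most influential pair was left out.

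Of the 45 gene lists, 28 held at least 1 called gene and 17 (921 genes) held none. The lists without a call included cholesterol synthesis (53 genes, median 0.01), DNA replication and mitosis (126 genes, 0.09), heat shock and stress (53 genes, -0.03), motile cilia (61 genes, 0.07), signalling by Wnt, Fgf, Bmp, hedgehog and Notch (127 genes, 0.09) and lens crystallins (72 genes, -0.32). For the crystallins the median ran from -0.96 to 0.56 in single pairs. The liver list had the widest spread of pair medians, from -2.66 to 1.83, with 1 gene called higher (apoe.S, also made by macrophages and glia, 0.31 ± 0.06) and 1 lower (apoa4.S, with at most 1.96 CPM in any library).

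Each stage was also given its own effect. The consistent genes were chosen for one sign in all 6 pairs and a pooled call, so alike directions and a high share of calls at each stage follow from that choice and are given only as a description. In a fit with one treatment effect per stage, the median change of the raised genes was 0.42 at stage 45 and 0.44 at stage 47, and that of the lowered genes -0.42 and -0.33. Of the 425, 132 were called at stage 45 (where 0.991% of all genes were called) and 96 at stage 47 (0.632% of all genes), 44 of them at both, and 241 at neither. Stage by stage, the rise of tspan36.L was 1.35 ± 0.14 at stage 45 and 1.37 ± 0.14 at stage 47, that of mlana.L 1.16 ± 0.13 and 1.16 ± 0.14, and that of prl.2.S 1.18 ± 0.20 and 1.20 ± 0.20. For tyrp1.L the effects were 0.78 ± 0.09 and 1.03 ± 0.09, a difference of 0.25 ± 0.13 that did not pass (adjusted p = 0.887). The rise of pmel.S was 0.87 ± 0.10 and 1.17 ± 0.10 (difference 0.30 ± 0.14, adjusted p = 0.833), and that of cish.S was 1.34 ± 0.18 and 0.87 ± 0.16 (difference -0.48 ± 0.24, adjusted p = 0.886). With the pairs of 1 stage alone fitted, 117 genes were called higher and 285 lower at stage 45, and 154 higher and 51 lower at stage 47, so most calls were lower at the first and higher at the second. Whether that balance differs was not tested.

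Some consistent genes had unlike fitted effects at the stages without passing the test of the difference. The protease tmprss2.3.L gave 0.47 ± 0.23 at stage 45 and 1.68 ± 0.18 at stage 47, a difference of 1.21 ± 0.30 (adjusted p = 0.228). The muscle gene mybpc1.S gave -0.95 ± 0.17 and -0.39 ± 0.17 (difference 0.56 ± 0.24, adjusted p = 0.811). Over all 27050 genes the difference between stages was called for 27 (0.0998%), 25 with a larger value at stage 47 and 2 with a smaller one (elapor1.L and crisp1.3.S). A single consistent gene was among them, grk7.L, with 0.46 ± 0.09 at stage 45 and 1.15 ± 0.09 at stage 47 (difference 0.69 ± 0.13, adjusted p = 0.0340). That call was lost with DESeq2 (adjusted p = 0.0771), without the block and without each pair but stage 47 replicate 1 (adjusted p from 0.0804 to 0.183). Of the 27, 11 were gamma-crystallin copies of the lens named crygdl. Of 45 such copies tested, all 45 had a fitted change under 0 at stage 45 and 35 had one above 0 at stage 47, so the pooled comparison averaged unlike values for them. For crygdl.5.L the change was -0.66 ± 0.09 at stage 45 and 0.28 ± 0.09 at stage 47 (difference 0.94 ± 0.12, adjusted p = 0.0057). Crystallin copies are alike in sequence and may share reads. Without the block no gene was called for a difference, and 575 had an unadjusted p under 0.05, while DESeq2 called 52.

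**Figure D4:**
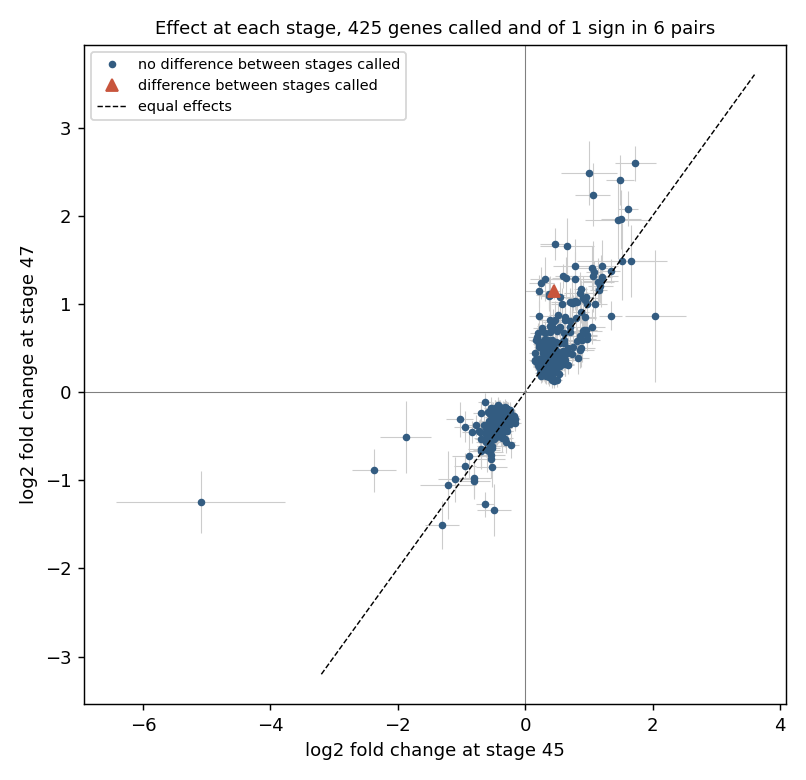
Log2 fold change at stage 45 (x axis) and at stage 47 (y axis) for the 425 consistent genes, with the dashed line marking equal effects. The shared sign on both axes follows from how the genes were chosen, and the far point at the left is pkp1.S, which had 0 CPM in all 3 treated libraries of stage 45, so its position there is no measured fold.

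Xenopus laevis carries most genes as a pair, .L and .S, from a genome duplication. Of the 425 consistent genes, 202 had a tested partner, and 187 of those partners (92.6%) had a fitted change in the same direction, against 68.7% over all 14098 genes with a tested partner. The partner was itself called in the same direction for 40 (19.8%, against 1.55%) and in the opposite one for 0. Several genes named above changed in 1 copy while the other was not called. Examples of such other copies are rpe65.S (0.08 ± 0.10), slc24a5.S (0.10 ± 0.19), gusb.S (0.095 ± 0.097), omp.S (-0.17 ± 0.14) and tnnt1.L (-0.09 ± 0.16). Both copies were consistent for 17 symbols, 11 raised (tspan36, pmel, ednrb2, kcnj13, pomc, ctsc, neurod4, rdh10, gnpda1, fuca1 and psap) and 6 lowered (ptprn, tagln, eef1a2, tnxb, bcl6 and nefh). Near-identical copies may share reads, depending on how the counting treated reads that map to both copies, so the copies are not independent measurements. The translation factor eef1a2, the form used by neurons and muscle, fell in both copies (eef1a2.L by 0.52 ± 0.09 and eef1a2.S by 0.45 ± 0.07 on the log2 scale, adjusted p = 0.00316 and 0.00111).

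**Figure D5:**
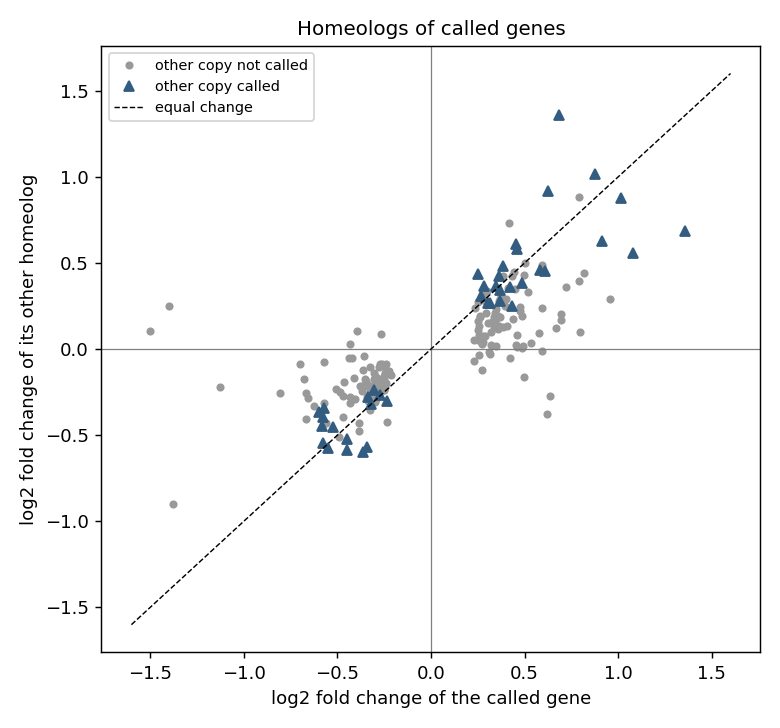
Log2 fold change of each consistent gene with a tested partner (x axis, 202 genes) against that of its other copy (y axis); triangles mark partners that were themselves called, and the dashed line marks equal change. Most points, 187 of 202, have the same sign on both axes.

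At the edge of the rule, the values just inside and just outside hardly differ. The consistent genes with the smallest shift in their weakest pair were mlf1.L (-1.15e-05 in stage 47 replicate 2), rbpms2.S (-0.0051 there) and cck.L (-0.0058 in stage 47 replicate 3). Called genes that missed by as little were fcn1.L (-0.0045 in stage 45 replicate 2 against a fitted 0.72), camkv.L and prom1.L. In all, 67 called genes had 5 of 6 pairs on the fitted side and 1 gene had 4.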

How the data were processed

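Whole-head RNA was sequenced as single-end 100 bp reads in 12 libraries, 3 for each stage and treatment, per the labels. Each deposited file gives a library's counts of reads for every gene, as whole numbers without scaling. Trimmomatic, HISAT2, HTSeq and DESeq2 are named in the submitters' processing notes. Versions, genome build, annotation and the counting of reads with several matches are not given in the sources used. No coordinates or sequences are given. Names came from a table of assembly Xenopus_laevis_v10.1, which matched 33597 of 37018 identifiers.

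The tests used edgeR 4.0.16 under R 4.3.3 (TMM scaling, filterByExpr, robust quasi-likelihood fit, pair and treatment as terms, 5 residual degrees of freedom), tested on simulated data. Log2 CPM for pair differences used a prior count of 2. Depth per library, 11998636 to 16933777 counts, limits low genes most, where 1 CPM is about 12 to 17 counts. Whether replicate numbers pair libraries was checked by correlating, across genes, the deviations from group means of control and treated libraries with the same number. The values were 0.336, 0.586 and 0.326 at stage 45 and 0.180, 0.225 and 0.471 at stage 47. The best match was with the same number in each pair, a check recorded once per pair and not for each library. Deviations from a mean of 3 libraries cancel out, so a positive value for the same number makes the others negative on average. Across the stages, libraries of the same number gave 0.181, 0.0141 and 0.352 in controls. In treated heads they gave 0.562, 0.0401 and 0.0873. The labels do not say what the number stands for.

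The members and the 45 lists were chosen with earlier results of these data known. Named genes were the 12 raised and 12 lowered with the largest change among named consistent genes of at least 1 CPM in a treatment group, up to 3 called members per list by p, the 5 genes with the smallest p for a stage difference, and ednrb2, dct, tyrp1, pmel, prl, cish, mmp9, mmp13, thrb, col2a1, sox9 and drd2. Other list members, genes not called and genes with both copies consistent were named after their values were seen. A few genes of the lists enter the counts without being reported here by name. Alternatives were no block, a block shared over stages, DESeq2 1.42.0, other scalings and filters, homeologs summed, thinned counts, a non-robust spread, each pair left out, and each stage alone.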

Additional observations from a re-analysis of the deposited data

Results flagged for a closer look

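For 6 of the genes named by the set rule, the effect at stage 47 minus that at stage 45 passed its own test (edgeR, adjusted p under 0.05). All but grk7.L were named as the 5 genes with the smallest p for this difference, so their passing follows from that choice. Over all 27050 genes 27 passed (0.0998%). The difference was 0.692 on the log2 scale for grk7.L, 0.936 for crygdl.5.L, 0.881 for crygdl.3.L, 0.786 for XB5965586.S, 1.02 for LOC108696877 and 2.7 for LOC108708798. None of the 6 passed without the pair block.

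For 3 of the 45 gene lists, the median of 1 pair lay far from the other 5 pairs, by a rule that chance meets in about 1 in 20 groups. A count of 3 among 45 is near that rate. In stage 47 replicate 2 the median log2 difference of the photoreceptor list was 0.7 and that of immediate early genes 0.417. In stage 47 replicate 1 that of sensory hair cells and inner ear was 0.185, the only pair above 0.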

How the results depend on the processing

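The number of calls depended on the pairing. Without the replicate block 34 genes were called (all 34 also consistent), and with a block shared over stages 129 (121 consistent), against 493 (425). DESeq2 called 298 (245 consistent; 1049 genes had no adjusted p), and a spread without robust estimation 264 (247). Leaving out 1 pair gave between 190 and 625 called genes, and between 185 and 595 that also had one sign in the pairs kept. The stage 47 pairs alone gave 205 and 205, the second count again asking for one sign in the fitted pairs only. Of the 425 genes, between 173 and 342 stayed called with 1 pair left out. With the stage 45 pairs alone 137 did, and with the stage 47 pairs alone 94. Numbers of calls with other scalings, filters, thinning, summed homeologs and the stage 45 pairs alone stayed within 1.5 times. The split of 274 higher and 219 lower calls became 117 and 285 with the stage 45 pairs alone and 154 and 51 with the stage 47 pairs alone. The count for a difference between stages was 27, against 0 without the replicate block, 52 with DESeq2 and between 3 and 56 with 1 pair left out.

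Of 1491 values of named genes under alternatives, 1068 kept direction and side of the threshold, 403 lost the call, 5 gained it and 15 changed sign. At stage 45 alone the log2 changes were -0.061 (LOC108708798), -0.10 (XB5965586.S), -0.00852 (sox9.L), -0.090 (sox9.S), -0.19 (drd2.L) and 0.018 (col2a1.L). At stage 47 alone they were 0.28 (crygdl.5.L), 0.24 (crygdl.3.L) and 0.086 (LOC108696877). With 1 pair left out, sox9.S ran from -0.039 to 0.073, drd2.L from -0.047 to 0.12 and col2a1.L from -0.075 to 0.042. Of 810 list medians, 5 moved by more than the standard deviation of the pair medians. That yardstick is wide for some lists, so the count does not show that the medians are stable. The liver median ran from -1.20 to 0.34 over the alternatives (standard deviation 1.49) and the crystallin median from -0.85 to 0.15 (0.59). The photoreceptor median also changed sign (-0.085 to 0.27). The cause of these changes was not tested. Leaving out single libraries was not run, since it leaves the partner without information. Genes near 1 CPM have wide errors at this depth.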

Other observations

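Among the 425 consistent genes 116 carry only a LOC number and 10 have no entry in the name table, so their function is not described. The largest fitted rise of all belonged to one of these, LOC108713473, with a control median of 1.83 CPM, a treated median of 7.94 CPM and a log2 fold change of 2.39 ± 0.21. Outside the lists, the matrix protein thbs3.L ran from 48.2 to 66.0 CPM in controls (median 55.9) and from 67.0 to 102 CPM in treated heads (median 79.3), a rise of 0.49 ± 0.06 (edgeR, adjusted p = 4.27e-05). The mitochondrial carrier slc25a25.S rose by 0.46 ± 0.06 (adjusted p = 0.000261), and the fatty acid import enzyme of muscle mitochondria, cpt1b.L, fell by 0.46 ± 0.07 (adjusted p = 0.00138), with treated libraries all below the controls. The potassium channel kcnj13, tied to pigment patterns in zebrafish, rose in both copies (kcnj13.L 0.61 ± 0.11, kcnj13.S 0.46 ± 0.09). The receptor eda2r.L, of the TNF receptor family, rose by 0.81 ± 0.14 (adjusted p = 0.00322). These genes were picked after their values were seen.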
